A study of Mus musculus with 10 samples.

Results

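The cytotoxic effector genes are 8 genes with which a lymphocyte kills another cell: Gzma, Gzmk, Gzmb, Gzmc, Prf1, Fasl, Nkg7 and Tnfsf10. Chromatin accessibility at these genes was taken from every listed region that overlapped the gene body or lay within 50 kb of its start, which gave 112 of the 94823 regions in the table. Gzma had 16 regions, Gzmk 5, Gzmb 14, Gzmc 9, Prf1 14, Fasl 25, Nkg7 21 and Tnfsf10 17. Of these, 9 regions stood at more than 1 member: 2 were shared by Gzma and Gzmk, and 7 by Gzmb and Gzmc. The nearest protein-coding start was that of a member for 82 of the 112 regions and that of another gene for 30. By position, 9 regions overlapped a protein-coding start, 6 a UTR, 11 another exon, 33 an intron and 53 lay between genes.

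The assay was ATAC-seq, in which a transposase inserts adapters into open chromatin, and the value is the number of insertions in a region. Invariant natural killer T (iNKT) cells, T lymphocytes that recognise lipid antigens on CD1d, were sorted from the thymus of mice as iNKT1 cells (CD27+ CD122+) or iNKT2 cells (CD27+ CD122-). The mice were BALB/c or SKG, a line on the BALB/c background with a hypomorphic Zap70, a kinase that acts just below the T cell receptor, and nothing else in the labels separated the groups. The groups held 2 libraries of BALB/c iNKT1 cells, 2 of SKG iNKT1, 3 of BALB/c iNKT2 and 3 of SKG iNKT2. The mice were young adults, matched for age within an experiment by the methods of the study. Whether libraries came from separate animals was not given, so p-values measure the spread between these libraries, which may be technical.

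Cytotoxic lymphocytes kill along a pair of routes. In the granule route, perforin forms pores in the membrane of the target and lets in granzymes, serine proteases that start its death. In the receptor route, the ligands FasL and TRAIL on the killer engage death receptors on the target. iNKT1 cells are the subset of thymic iNKT cells that resembles natural killer cells and makes interferon gamma, whereas iNKT2 cells are known for interleukin 4.

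The libraries held 14988590 to 36342635 insertions within listed regions, and levels are given as CPM, insertions per 1000000 after scaling of the library totals by the TMM method. Depth limits the smallest values: a group in which every library has 0 insertions was given a floor of 3 insertions over the group. Summed over the starts of 5 iNKT1 markers (Tbx21, Ifng, Cxcr3, Klrd1 and Il2rb, the last of which encodes the CD122 used in the sort), levels were 216 to 247 CPM in the iNKT1 libraries and 45.9 to 67.2 CPM in the iNKT2 libraries. The starts of the iNKT2 markers Zbtb16, Il17rb, Ccr7, Icos and Gata3 summed to 224 to 253 CPM in iNKT1 and 202 to 259 CPM in iNKT2, a sum to which Gata3 gave the most. Taken singly, Il17rb was higher in iNKT2 cells of BALB/c (log2 change 1.08, adjusted p = 7.0e-05) and SKG (1.44, adjusted p = 1.1e-05) and Ccr7 in SKG (1.46, adjusted p = 2.3e-05), whereas no start of Zbtb16, Icos or Gata3 was higher. Icos was lower in iNKT2 cells of BALB/c (-0.40, adjusted p = 0.0092), with -0.33 in SKG (adjusted p = 0.033). Zbtb16 (-0.36 in BALB/c, 0.08 in SKG) and Gata3 (-0.27 in each) did not pass an adjusted p under 0.01. The starts of the iNKT17 markers Il23r, Il17re and Ccr6 summed to 6.49 to 12.6 CPM in iNKT2 libraries and to at most 0.835 CPM in iNKT1 libraries. Of 4 NK cell markers, Ncr1 and Fcer1g had a region at the start and summed to 5.2 to 9.83 CPM in iNKT1 libraries and to at most 0.408 CPM in iNKT2 libraries, while Klrb1c and Klra8 had none. None of 4 double-positive thymocyte markers or 4 B cell markers had a listed region at the start, and Itgam and Cd68, 2 of 4 myeloid markers, summed to 4.3 to 7.94 CPM. The 4 T cell markers Cd3e, Cd3g, Thy1 and Lck also moved with the subset, at 89.4 to 103 CPM in iNKT1 and 57.5 to 81.0 CPM in iNKT2 libraries, and Thy1 (-1.31), Lck (-0.92) and Cd3e (-0.56) were lower in BALB/c iNKT2 cells at an adjusted p under 0.01. Between genotypes, the starts of Ccr6 (1.51), Thy1 (1.03) and Ccr7 (0.81) were higher in SKG iNKT2 cells at an edgeR adjusted p under 0.01. No marker start was lower there by that rule, and none passed in iNKT1 cells. The part of NK cells, iNKT17 cells or a general difference at T cell genes in the differences between subsets or genotypes was not tested. In bulk samples fewer cells with an open site cannot be told apart from less opening per cell.

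The sequences of 4 regions and 3 promoters are shown as examples from the loci of Gzma, Gzmb, Prf1, Fasl and Tnfsf10. The first 4 lines are the central 300 bases of the listed region, read from GRCm38, and the last 3 lines are the 250 bases before the annotated start of Gzma, Gzmb and Prf1 from RefSeq (GRCm38.p6). All are written 5' to 3' on the strand of the member gene. Capitals mark matches, on either strand, to 6 short motifs named after factor families of lymphocytes: T-box AGGTGT, Runt TGTGGT, ETS CAGGAA, NFAT GGAAAA, Egr GCGTGG and AP-1 TGANTCA. Matches to CAGGAA and GGAAAA can share bases. A match is a string of letters and was not tested as a binding site.
Gzma, 3.79 kb upstream, chr13:113104787-113105086, minus strand: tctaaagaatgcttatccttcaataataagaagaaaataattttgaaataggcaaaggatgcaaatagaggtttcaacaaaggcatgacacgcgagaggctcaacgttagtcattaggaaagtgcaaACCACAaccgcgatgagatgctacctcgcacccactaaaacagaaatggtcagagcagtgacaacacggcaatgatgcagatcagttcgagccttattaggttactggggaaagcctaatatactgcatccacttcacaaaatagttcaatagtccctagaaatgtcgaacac
Gzmb, 13.8 kb upstream, chr14:56276109-56276408, minus strand: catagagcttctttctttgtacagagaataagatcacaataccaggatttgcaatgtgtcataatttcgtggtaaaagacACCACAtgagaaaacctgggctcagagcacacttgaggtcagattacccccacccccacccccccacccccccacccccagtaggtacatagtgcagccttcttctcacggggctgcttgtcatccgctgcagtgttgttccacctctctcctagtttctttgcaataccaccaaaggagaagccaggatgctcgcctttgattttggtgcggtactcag
Fasl, 26.5 kb downstream, chr1:161761494-161761793, minus strand: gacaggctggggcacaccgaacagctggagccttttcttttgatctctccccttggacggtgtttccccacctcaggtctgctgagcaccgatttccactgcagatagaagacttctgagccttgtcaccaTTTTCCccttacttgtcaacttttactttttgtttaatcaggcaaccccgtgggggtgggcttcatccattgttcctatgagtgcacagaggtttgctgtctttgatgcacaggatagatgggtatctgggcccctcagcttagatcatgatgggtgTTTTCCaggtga
Tnfsf10, 5.3 kb downstream in an intron, chr3:27322715-27323014, plus strand: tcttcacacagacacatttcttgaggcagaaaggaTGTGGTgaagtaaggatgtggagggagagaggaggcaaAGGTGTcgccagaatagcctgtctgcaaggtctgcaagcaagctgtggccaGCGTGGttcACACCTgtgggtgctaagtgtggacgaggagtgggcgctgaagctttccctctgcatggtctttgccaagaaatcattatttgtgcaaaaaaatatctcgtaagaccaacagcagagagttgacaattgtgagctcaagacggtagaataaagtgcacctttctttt
Gzma promoter, chr13:113100982-113101231, minus strand: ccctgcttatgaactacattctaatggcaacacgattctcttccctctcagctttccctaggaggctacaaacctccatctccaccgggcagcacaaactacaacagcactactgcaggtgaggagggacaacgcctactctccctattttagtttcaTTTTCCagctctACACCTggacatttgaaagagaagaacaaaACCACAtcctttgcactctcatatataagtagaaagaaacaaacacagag
Gzmb promoter, chr14:56262335-56262584, minus strand: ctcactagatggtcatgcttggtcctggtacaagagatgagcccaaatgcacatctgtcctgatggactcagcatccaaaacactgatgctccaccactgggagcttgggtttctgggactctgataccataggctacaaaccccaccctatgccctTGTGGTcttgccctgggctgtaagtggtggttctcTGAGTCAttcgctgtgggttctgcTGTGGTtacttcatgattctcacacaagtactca
Prf1 promoter, chr10:61297586-61297835, plus strand: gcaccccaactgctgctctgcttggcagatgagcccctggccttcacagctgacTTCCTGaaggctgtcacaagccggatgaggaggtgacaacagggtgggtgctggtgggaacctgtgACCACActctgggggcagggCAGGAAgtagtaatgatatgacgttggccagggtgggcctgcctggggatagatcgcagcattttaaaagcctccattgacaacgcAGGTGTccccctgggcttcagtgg

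Chromatin at the cytotoxic genes was far less accessible in iNKT2 than in iNKT1 cells of both genotypes. Of the 112 regions, 57 were called lower and 3 higher in BALB/c iNKT2 cells, where called means an edgeR adjusted p under 0.01 and a change of at least 4-fold. Among all 94823 regions the same comparison called 6.36% lower and 15.5% higher. In SKG, 53 regions were called lower and 2 higher, against 6.96% and 10.2% of all regions. The balance over all regions depends on the scaling: with voom and quantile normalization it was 9042 higher and 8966 lower in BALB/c and 4244 higher and 7011 lower in SKG, while 61 and 55 member regions were called lower. The 112 regions had a median log2 change of -2.05 (BALB/c) and -1.78 (SKG), beside 0.06 and 0.14 over all regions. The regions called lower in both genotypes numbered 50, which is 87.7% of the BALB/c calls and 94.3% of the SKG calls. Over all regions, the 4585 called lower in both made up 76.0% and 69.5% of the calls.

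The share called lower was larger near the starts. In both genotypes 10 of the 13 regions within 1 kb of a member's start were called lower. Between 1 and 10 kb, 21 of 30 were called lower in BALB/c and 20 in SKG, and beyond 10 kb 26 and 23 of 69. Regions nearest to a member's start were called lower in 46 (BALB/c) and 42 (SKG) of 82 cases, and those nearest to another gene in 11 of 30 in each genotype.

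**Figure D1:**
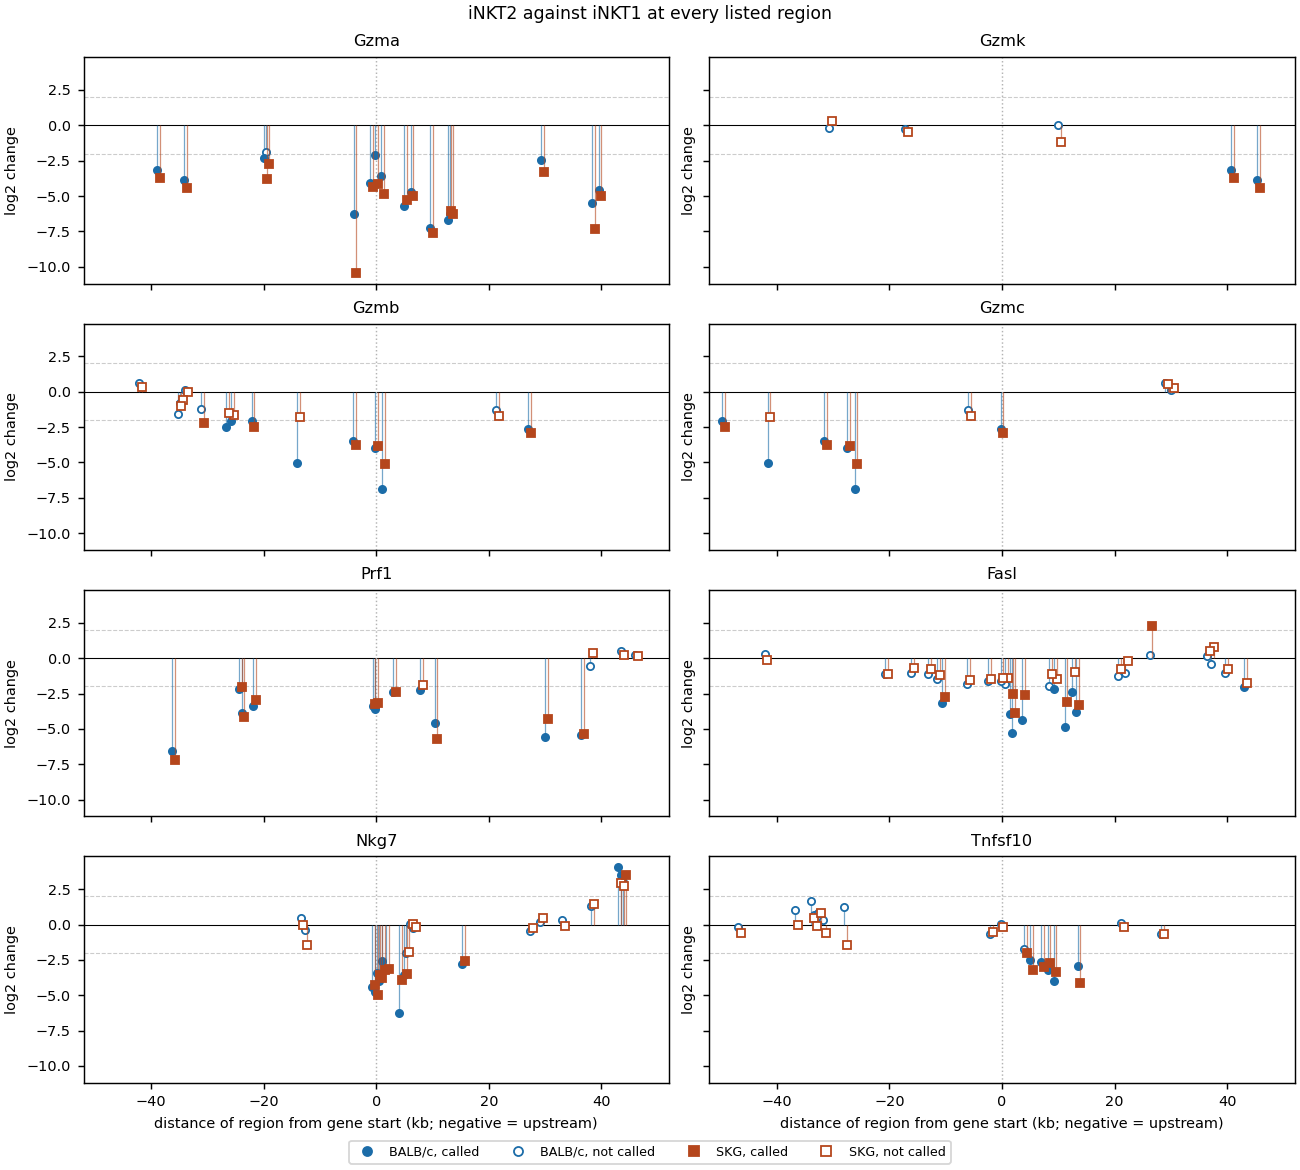
Log2 change of iNKT2 against iNKT1 cells (y axis) at each region of the 8 loci by its distance from the gene start in kb (x axis), for BALB/c (circles) and SKG (squares); filled symbols are called and dashed lines mark 4-fold. Gzma has called symbols across its whole window, whereas those of Tnfsf10 sit downstream of a start that does not move, and the higher calls are at Nkg7 (far downstream) and Fasl.

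The 50 regions called lower in both genotypes were chosen for a fall of at least 4-fold, and their remaining level is given as a description. In BALB/c iNKT2 cells it was a median of 6.64% of that in BALB/c iNKT1 cells (0.626% to 23.7%), and in SKG the median was 6.42% (0% to 23.5%). The iNKT2 library of replicate 1 stood apart in both genotypes: it was the highest of the 3 at 34 of the 50 regions in BALB/c and at 37 in SKG. Its level summed over the 50 regions was 114 CPM in BALB/c, where the other libraries had 72.8 and 73.6 CPM, and 106 CPM in SKG, where they had 67.7 and 53.9 CPM. Its iNKT1 markers were also higher, at 57.1 CPM beside 45.9 and 46.3 in BALB/c and 67.2 CPM beside 46.4 and 48.9 in SKG. The part of iNKT1 cells in these levels was not tested. Without that library, 60 regions were called lower between the BALB/c subsets (without BALB/c iNKT2 replicate 1) and 54 between the SKG subsets (without SKG iNKT2 replicate 1).

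Summed over the regions of each locus, 7 of 8 members were lower in BALB/c iNKT2 than in iNKT1 cells and 8 of 8 in SKG at an adjusted p under 0.01, where 40.9% and 20.2% of 18123 protein-coding loci were lower by the same rule. The exception was Gzmk in BALB/c, at -0.37 ± 0.147 (log2, SE; adjusted p = 0.046). The median over the members was -1.64 in BALB/c and -1.55 in SKG, beside -0.25 and -0.11 over all loci. The shares over all loci depend on the scaling as well, with 2006 and 1356 loci lower with library totals and 2516 and 1343 with voom in place of 7405 and 3664, while 7 and 8 members were lower under both. A region near several genes enters the sum of each, so Gzma and Gzmk, and Gzmb and Gzmc, are not independent.

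**Figure D2:**
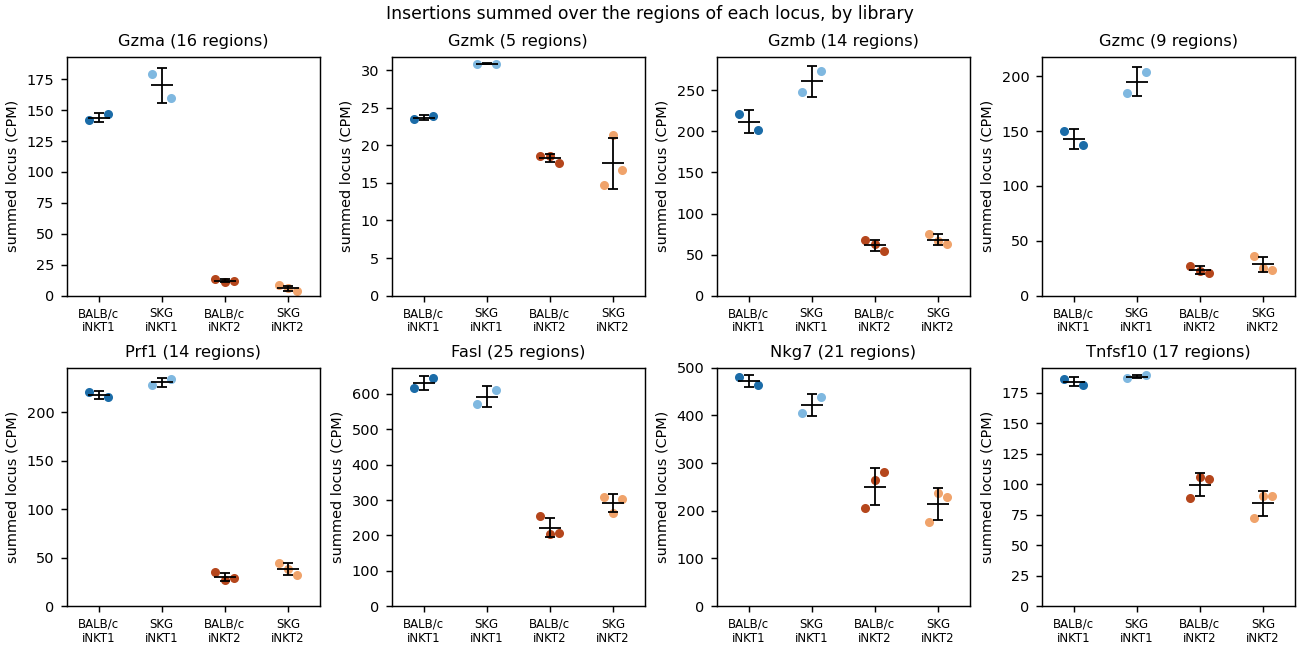
Insertions summed over the regions of each locus in CPM (y axis) for the 10 libraries in their 4 groups (x axis); points are libraries, bars are means with SD. All iNKT1 libraries lie above all iNKT2 libraries at each of the 8 loci, with the smallest gap at Gzmk.

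Gzma encodes granzyme A, a tryptase. Its locus had the largest fall of the 8. The summed level was 142 and 147 CPM in BALB/c iNKT1 libraries, 179 and 160 in SKG iNKT1, 13.3, 11 and 11.5 in BALB/c iNKT2, and 8.17, 5.74 and 3.98 in SKG iNKT2. The groups of the 2 subsets were far apart, and every SKG iNKT2 library was below every BALB/c iNKT2 library. The log2 change from iNKT1 to iNKT2 was -3.60 ± 0.20 (SE; adjusted p = 1.1e-06) in BALB/c and -4.78 ± 0.215 (adjusted p = 6.6e-07) in SKG. Lower calls were made at 15 of its 16 regions in BALB/c and at 16 of 16 in SKG.

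The region at the Gzma start (chr13:113100819-113101228) gave 15.4 and 14.5 CPM in BALB/c iNKT1, 17.1 and 18.3 in SKG iNKT1, 3.36, 3.15 and 3.71 in BALB/c iNKT2 and 1.28, 0.827 and 0.674 in SKG iNKT2. It fell by 2.13 ± 0.199 on the log2 scale in BALB/c (adjusted p = 3.7e-07) and by 4.17 ± 0.232 in SKG (adjusted p = 8.7e-09). With library totals in place of TMM, or without regions of low counts, the BALB/c change was -1.85 and -1.99 and thus under 4-fold. The region of highest level per kb, 13.0 kb downstream in an intron of Cdc20b, had means of 26.5 and 28.2 CPM in BALB/c and SKG iNKT1 cells and of 0.266 and 0.358 CPM in iNKT2 cells. Another intron of Cdc20b, 38.6 kb downstream of Gzma, had the smallest adjusted p of the locus, with log2 changes of -5.52 ± 0.285 in BALB/c and -7.33 ± 0.341 in SKG. At 3.79 kb upstream (the first sequence above), BALB/c iNKT1 libraries had 8.24 and 8.73 CPM, SKG iNKT1 7.0 and 6.99, and BALB/c iNKT2 0.125, 0.0794 and 0.124, while no insertion was counted in any of the 3 SKG iNKT2 libraries. Against the floor, the SKG iNKT2 level was at least 164-fold lower than that of SKG iNKT1 cells.

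Gzmk, which encodes granzyme K, another tryptase and the neighbour of Gzma, differed less between the subsets. No listed region lay within 1 kb of its start. Its highest region, 17.0 kb upstream of the principal start and within an intron of a longer Gzmk transcript, had 14.3 and 15.1 CPM in BALB/c iNKT1, 18.2 and 17.4 in SKG iNKT1, 12.3, 12.1 and 12.1 in BALB/c iNKT2 and 9.45, 16.7 and 12.7 in SKG iNKT2. The log2 difference there was -0.27 ± 0.195 in BALB/c (adjusted p = 0.24) and -0.47 ± 0.198 in SKG (adjusted p = 0.063). The nearest protein-coding start to this region is that of Esm1. The 1 region nearest to the Gzmk start lay 10.2 kb downstream. Its means were 4.49 and 5.71 CPM in BALB/c and SKG iNKT1 cells and 4.47 and 2.48 CPM in iNKT2 cells. It changed by -0.01 ± 0.236 in BALB/c (edgeR adjusted p = 0.97) and by -1.18 ± 0.251 in SKG (adjusted p = 0.0011, under 4-fold). Both regions called lower at Gzmk were those shared with Gzma. One of them, 45.6 kb downstream, had means of 2.10 and 4.17 CPM in BALB/c and SKG iNKT1 cells and of 0.136 and 0.157 CPM in iNKT2 cells. The summed Gzmk locus in SKG fell by 0.82 ± 0.149 (adjusted p = 0.0017), but without SKG iNKT1 replicate 1 or 2 the adjusted p was 0.017 and 0.015.

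Gzmb and Gzmc encode granzymes B and C and lie in one cluster of granzyme genes. Only reads with a unique place in the genome were mapped by the authors, so counts in stretches that near-identical granzyme copies share are uncertain. At the Gzmb start (chr14:56261897-56262565) the libraries gave 62.8 and 58.5 CPM in BALB/c iNKT1, 75.1 and 83.8 in SKG iNKT1, 4.86, 3.39 and 3.01 in BALB/c iNKT2, and 8.17, 5.33 and 2.56 in SKG iNKT2. The subsets did not overlap, and the log2 change was -4.01 ± 0.287 (adjusted p = 3.5e-08) in BALB/c and -3.83 ± 0.284 (adjusted p = 6.3e-08) in SKG. The Gzmc start was far weaker, with means of 4.35 and 5.81 CPM in iNKT1 cells and 0.700 CPM in iNKT2 cells of each genotype, and it fell by 2.63 ± 0.441 in BALB/c (adjusted p = 1e-04) and 2.89 ± 0.457 in SKG. The region 21.9 kb upstream of Gzmb fell from means of 49.8 to 11.8 CPM in BALB/c and from 59.7 to 10.6 CPM in SKG, a log2 change of -2.07 ± 0.174 and -2.47 ± 0.178. The BALB/c change lies at the edge of the 4-fold limit and ranged from -1.98 to -1.77 with library totals, voom, the low-count filter and the replicate block, and was -1.95 when replicate 1 of BALB/c iNKT1 or replicate 2 or 3 of BALB/c iNKT2 was left out. Farther out, the region 34.5 kb upstream was the highest per kb of the Gzmb locus and changed by under 2-fold, with means of 31.0 and 29.3 CPM in iNKT1 cells and 18.0 and 19.6 CPM in iNKT2 cells. Called lower were 8 of 14 regions at Gzmb in BALB/c and 6 in SKG, and 6 and 5 of 9 at Gzmc.

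Prf1 encodes perforin. Its start (chr10:61297499-61297880) was the highest region per kb of the locus and gave 50.3 and 43.4 CPM in BALB/c iNKT1, 54.4 and 59.6 in SKG iNKT1, 6.30, 2.62 and 2.47 in BALB/c iNKT2 and 7.79, 6.25 and 4.58 in SKG iNKT2. Both iNKT2 replicates 1 were the highest of their group and still far below every iNKT1 library. The log2 change was -3.62 ± 0.295 in BALB/c (adjusted p = 1.1e-07) and -3.17 ± 0.291 in SKG (adjusted p = 4.3e-07). The smallest adjusted p of the locus stood 36 kb upstream, in an intron of Adamts14, with means of 10.7 and 7.06 CPM in BALB/c and SKG iNKT1 cells and of 0.106 and 0.0549 CPM in iNKT2 cells. Of 14 Prf1 regions, 11 were called lower in BALB/c and 10 in SKG.

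Nkg7 encodes a membrane protein of cytotoxic granules. Its start (chr7:43436678-43437241) had the highest level per kb of the member starts in BALB/c iNKT1 cells, at 151 CPM per kb, ahead of Prf1 with 123 and Gzmb with 90.6. The libraries gave 85.7 and 84.7 CPM in BALB/c iNKT1, 60.8 and 69.7 in SKG iNKT1, 6.84, 1.27 and 0.989 in BALB/c iNKT2, and 3.60, 1.10 and 1.01 in SKG iNKT2. Replicate 1 held most of what was left in iNKT2 cells, and the log2 change was -4.79 ± 0.534 in BALB/c and -4.95 ± 0.563 in SKG. Regions close to the start fell as well. At 1.3 kb downstream the level fell from means of 75.0 to 12.5 CPM in BALB/c and from 76.8 to 8.03 CPM in SKG, and at 4.25 kb, in a UTR of Cldnd2, from 11.7 to 0.138 CPM and from 7.83 to 0.483 CPM. At 6.81 kb, the start of Etfb (a mitochondrial electron carrier) had means of 36.2 and 39.7 CPM in iNKT1 and 30.9 and 34.8 CPM in iNKT2 cells of BALB/c and SKG, and did not pass the test (adjusted p = 0.21 and 0.33). The 3 regions called higher in BALB/c iNKT2 cells all lay at Iglon5, 43.2 to 44.2 kb downstream, and their nearest start is that of Iglon5.

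Fasl encodes Fas ligand. The summed level of its locus was 254, 205 and 208 CPM in BALB/c iNKT2 and 309, 263 and 302 in SKG iNKT2, beside 617 and 646 CPM in BALB/c iNKT1 and 571 and 612 in SKG iNKT1. The start (chr1:161787728-161788750) gave 71.7 and 70.3 CPM in BALB/c iNKT1, 79.3 and 81.9 in SKG iNKT1, 30.0, 20.2 and 20 in BALB/c iNKT2 and 38.0, 27.4 and 24.1 in SKG iNKT2. These groups did not overlap between subsets, but the change was under 4-fold, at -1.60 ± 0.191 in BALB/c (adjusted p = 3.9e-06) and -1.43 ± 0.192 in SKG (adjusted p = 1.8e-05). The region 5.95 kb upstream fell by 1.82 ± 0.128 in BALB/c and by 1.54 ± 0.129 in SKG. The highest region per kb of the locus, 20.9 kb downstream, fell less. Its means went from 109 to 45.8 CPM in BALB/c (log2 change -1.25 ± 0.131) and from 113 to 67.1 CPM in SKG (-0.75 ± 0.132). Of 25 Fasl regions, 9 were called lower in BALB/c and 6 in SKG, and 21 and 16 were lower at an adjusted p under 0.01 without the limit on fold.

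Tnfsf10 encodes TRAIL, and its start did not follow the pattern of the granule genes. The start (chr3:27316588-27318013) gave 47.3 and 47.4 CPM in BALB/c iNKT1, 55.4 and 52.3 in SKG iNKT1, 38.0, 52.5 and 53.0 in BALB/c iNKT2, and 38.2, 52.7 and 56.4 in SKG iNKT2. The groups overlapped, with the iNKT2 replicate 1 of each genotype the lowest, and the log2 difference was 0.02 ± 0.173 in BALB/c (adjusted p = 0.95) and -0.14 ± 0.174 in SKG (adjusted p = 0.54). Within the gene, 5.3 kb from the start (chr3:27322327-27323403), the intron region shown above gave 77.5 and 72.6 CPM in BALB/c iNKT1, 77.3 and 79.6 in SKG iNKT1, 15.8, 12.5 and 11.2 in BALB/c iNKT2 and 10.0, 9.32 and 5.26 in SKG iNKT2. It fell by 2.51 ± 0.197 in BALB/c (adjusted p = 7.7e-08) and by 3.23 ± 0.206 in SKG (adjusted p = 2e-08). In BALB/c iNKT2 cells Tnfsf10 had the highest start level per kb of the members, 33.6 CPM per kb, followed by Fasl with 22.9, Prf1 with 9.94, Gzma with 8.3, Gzmb with 5.61, Nkg7 with 5.38 and Gzmc with 1.82. In this order the libraries of Fasl and Prf1, and of Gzma and Gzmb, did not overlap, whereas those of the other neighbours did. In BALB/c iNKT1 cells the order was Nkg7, Prf1, Gzmb, Fasl (69.4), Gzma (36.4), Tnfsf10 (33.2) and Gzmc (11.3), and no neighbours overlapped. In SKG iNKT1 cells Prf1 came first with 149, followed by Gzmb with 119 and Nkg7 with 116, whose libraries overlapped.

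**Figure D3:**
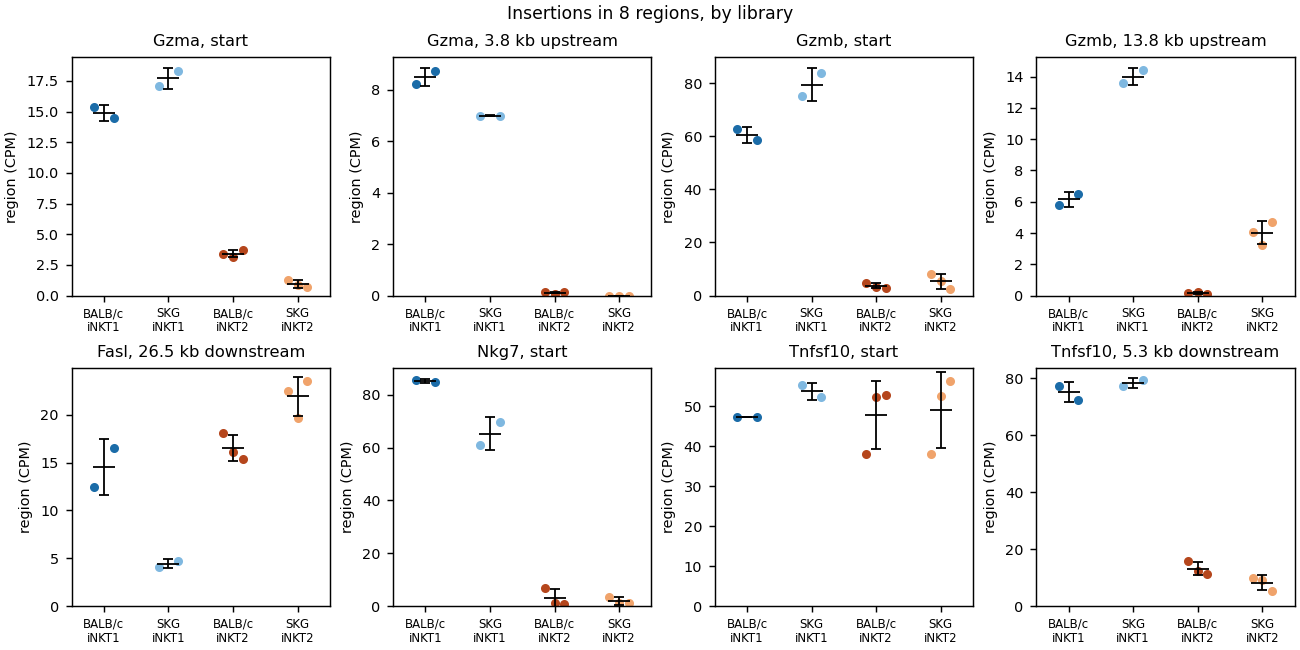
Insertions in 8 regions in CPM (y axis) for the 10 libraries in their 4 groups (x axis); points are libraries, bars are means with SD. At the Tnfsf10 start the subsets overlap, at the region 13.8 kb upstream of Gzmb the SKG iNKT2 libraries reach 3.26 to 4.72 CPM beside at most 0.212 CPM in BALB/c iNKT2, and at the region 26.5 kb downstream of Fasl the SKG iNKT1 libraries are the lowest.

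Few regions of the cytotoxic genes were called between the genotypes. In iNKT1 cells, 1 of the 112 regions was called lower in SKG than in BALB/c and 0 were called higher, against 0.732% and 0.281% of all regions. By DESeq2 and by voom the higher count was also 0. An unadjusted edgeR p under 0.05, in either direction, was found at 18 of the 112 regions and at 16196 of all 94823, a similar share. In iNKT2 cells, 5 regions were called lower and 1 higher in SKG, beside 4.73% lower and 0.252% higher among all regions, so that the share called lower, 4.46%, was near that of all regions. A total of 40 had an unadjusted edgeR p under 0.05, again a similar share to the 35536 of all 94823 regions. The median log2 change over the 112 regions was -0.05 in iNKT1 and 0.05 in iNKT2. At summed loci, 0 of 8 members passed an adjusted p under 0.01 in iNKT1, where 0.662% of all loci did so in either direction. DESeq2 and voom also gave 0, and 3 members had an unadjusted p under 0.05. In iNKT2, Gzma alone passed and was lower (6.03% of all loci were lower), with 2 members passing by DESeq2 and 0 by voom. The subset and genotype comparisons share libraries, so their values are given side by side for each region.

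**Figure D4:**
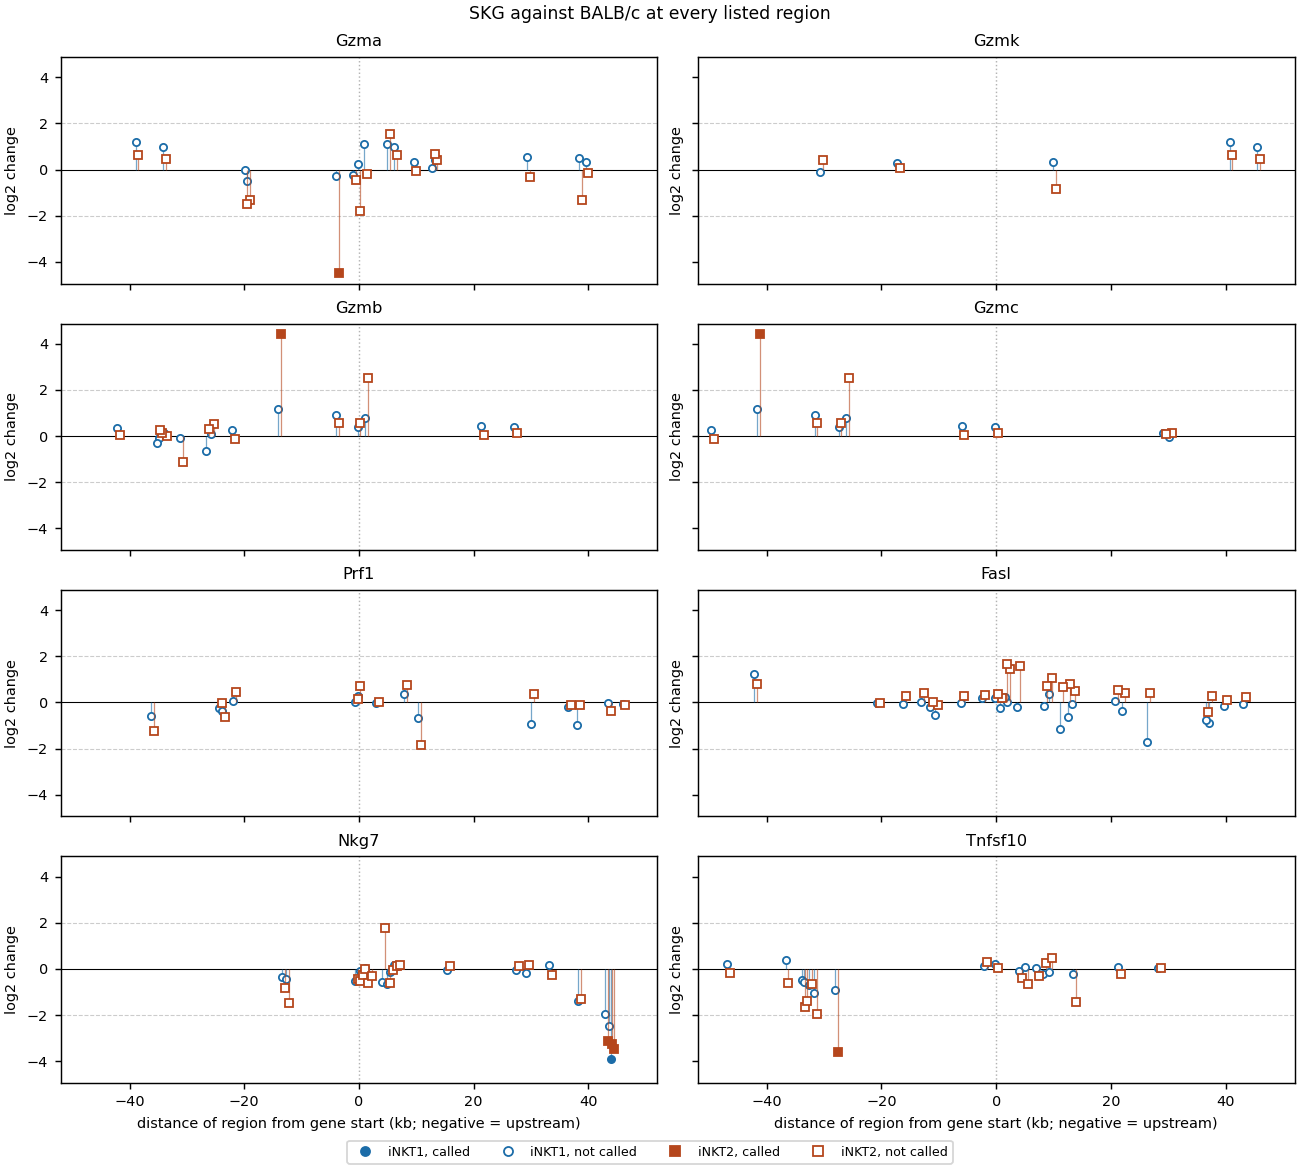
Log2 change of SKG against BALB/c (y axis) at each region of the 8 loci by its distance from the gene start in kb (x axis), in iNKT1 (circles) and iNKT2 cells (squares); filled symbols are called and dashed lines mark 4-fold. The called symbols are 1 region each at Gzma and Tnfsf10, the region 13.8 kb upstream of Gzmb (drawn again at Gzmc), and the Iglon5 regions far downstream of Nkg7.

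In SKG iNKT2 cells the summed level of the Gzma locus was lower than in BALB/c, though few of its regions passed the test. Of the 16 regions, 3 were lower and 0 higher at an adjusted p under 0.01, where 9619 of all 94823 regions were lower and 3812 higher. The median log2 change over the 16 regions was -0.16, with a range of -4.49 to 1.53. The summed Gzma locus differed by -0.95 ± 0.197 between SKG and BALB/c iNKT2 cells (log2, SE; edgeR adjusted p = 0.0057), and by 0.23 ± 0.207 in iNKT1 cells (adjusted p = 0.84). The difference between these effects was -1.18 ± 0.287 (adjusted p = 0.056), and it passed by DESeq2 (-1.28, adjusted p = 0.001) and without SKG iNKT2 replicate 1 (-1.50, adjusted p = 0.0044). When single libraries were left out, the iNKT2 call was kept without SKG iNKT2 replicate 1, and the other 9 omissions gave -1.07 to -0.76 with adjusted p of 0.011 to 0.020. It was also lost with library totals (-1.07, adjusted p = 0.011) and with voom (-0.53). The start of Gzma carried the clearest change, at -1.79 ± 0.226 in iNKT2 (adjusted p = 4.1e-05, under 4-fold) and 0.25 ± 0.213 in iNKT1 (adjusted p = 0.64). Its interaction, the change from iNKT1 to iNKT2 in SKG minus that in BALB/c, was -2.04 ± 0.312 (adjusted p = 0.0028) and was called. Without BALB/c iNKT1 replicate 1 or 2, SKG iNKT1 replicate 1 or 2, or SKG iNKT2 replicate 2 or 3, it was -2.13 to -1.89 and lost the call, by adjusted p of up to 0.032 or by a change under 4-fold. The region 3.79 kb upstream, with 0 insertions in SKG iNKT2 cells and 10 over the 3 BALB/c iNKT2 libraries, was at least 2.49-fold lower against the floor. Its call in SKG against BALB/c iNKT2 cells (adjusted p = 0.0083) was lost in each of the 10 omissions, where adjusted p was 0.012 to 0.040, with the replicate block (adjusted p = 0.013), by DESeq2 (0.020), with only the groups compared (0.10) and by voom (-0.42, adjusted p = 0.74).

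At Gzmb, 1 region went the other way. The region 13.8 kb upstream (chr14:56276063-56276456) gave 5.82 and 6.48 CPM in BALB/c iNKT1, 13.6 and 14.4 in SKG iNKT1, 0.188, 0.212 and 0.124 in BALB/c iNKT2 and 4.07, 3.26 and 4.72 in SKG iNKT2. No pair of groups overlapped. SKG was higher by 1.19 ± 0.224 in iNKT1 cells (log2, SE; adjusted p = 0.0053) and by 4.43 ± 0.28 in iNKT2 cells (adjusted p = 1.1e-07), and the interaction was 3.25 ± 0.373 (adjusted p = 0.00055). The iNKT2 and interaction calls held in each alternative and each omission. The region lies within the annotated processed pseudogene Gm48200, with 156 of its 394 bases in the exon, and the part of copies of that sequence elsewhere in the genome was not tested. The Gzmb start did not pass in the same comparisons, at 0.39 ± 0.286 in iNKT1 (adjusted p = 0.56) and 0.57 ± 0.277 in iNKT2 (adjusted p = 0.15).

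Fasl had a region with its own pattern 26.5 kb downstream (chr1:161761275-161762013). It gave 12.4 and 16.5 CPM in BALB/c iNKT1, 4.11 and 4.75 in SKG iNKT1, 18.1, 16.1 and 15.4 in BALB/c iNKT2 and 22.5, 19.6 and 23.5 in SKG iNKT2. The SKG iNKT1 libraries were below all others, and BALB/c iNKT1 and iNKT2 libraries overlapped. SKG differed by -1.70 ± 0.206 in iNKT1 (adjusted p = 0.0002) and by 0.40 ± 0.15 in iNKT2 (adjusted p = 0.059), and the interaction was 2.11 ± 0.255 (adjusted p = 0.00076). The interaction call was lost without BALB/c iNKT1 replicate 2 (1.89), BALB/c iNKT2 replicate 3 (1.98) or SKG iNKT1 replicate 1 (2.01, adjusted p = 0.015), and with voom (1.72). In iNKT2 cells 4 other Fasl regions, 8.66 to 20.9 kb downstream, were higher in SKG at an adjusted p under 0.01 but below 4-fold, by 0.55 to 1.05. Without a limit on fold, 3812 of all 94823 regions were higher at that adjusted p. The 4 Fasl regions were chosen after their values were seen. The summed Fasl locus differed by 0.39 ± 0.0947 in iNKT2 (adjusted p = 0.011), and it passed with the replicate block (adjusted p = 0.0047), by DESeq2 (0.0058) and without BALB/c iNKT2 replicate 1 (0.49, adjusted p = 0.0027). In these settings 3972, 3401 and 1551 of all 18123 loci were higher by the same rule. The median change over all loci in the main fit was 0.17.

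The other genotype calls were at weak or distant regions. At Iglon5, 44.2 kb from the Nkg7 start, libraries gave 2.36 and 1.59 CPM in BALB/c iNKT1, 0 and 0.257 in SKG iNKT1, 10.7, 17.5 and 21.4 in BALB/c iNKT2 and 1.07, 1.33 and 2.29 in SKG iNKT2. SKG was below BALB/c in every library of each subset, by -3.47 ± 0.339 in iNKT2 (adjusted p = 4.2e-06) and by -3.91 ± 0.742 in iNKT1 (adjusted p = 0.0055). The iNKT1 call was lost when any 1 of the 4 iNKT1 libraries was left out, with values of -8.72 to -2.94. Its neighbours 43.8 and 43.2 kb from the start were lower in SKG iNKT2 by -3.25 ± 0.367 and -3.11 ± 0.494. Upstream of Tnfsf10, the region at 27.8 kb had 1.91, 1.83 and 1.44 CPM in BALB/c iNKT2 and 0.178, 0.138 and 0.0674 in SKG iNKT2, a log2 change of -3.59 ± 0.48 (adjusted p = 7e-05). A further 3 regions 31.6 to 33.6 kb upstream of Tnfsf10 were lower in SKG iNKT2 cells at an adjusted p under 0.01, by -1.97 to -1.39, and were chosen after their values were seen. Without a limit on fold, 9619 of all 94823 regions were lower at that adjusted p.

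For the interaction over all 112 regions, 2 were called higher (those at Gzmb and Fasl) and 1 lower (the Gzma start), beside 0.189% higher and 0.341% lower among all regions. At Nkg7, the Cldnd2 region 4.25 kb downstream had an interaction of 2.34 ± 0.552 (adjusted p = 0.028), which was called by DESeq2 (2.30, adjusted p = 0.0081).

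The rest of the killing machinery moved less. Of 19 other genes of the pathway, 8 were lower at the summed locus in iNKT2 cells of BALB/c and the same 8 in SKG, at an adjusted p under 0.01, and none was higher. At an unadjusted p under 0.05 there were 12 and 10 genes in either direction. The 8 of 19 compare with 40.9% of all loci lower in BALB/c and 20.2% in SKG, and by voom 4 and 3 genes passed. The median over the 19 genes was -0.25 in BALB/c, the value over all loci, and -0.16 in SKG, beside -0.11. The 8 were the granzymes Gzmf and Gzmm, Srgn (serglycin, the proteoglycan of the granule), Ctsw (cathepsin W), Rab27a and Unc13d (release of granules), and the granzyme inhibitors Serpinb9 and Serpinb6b. In BALB/c their log2 changes were -1.44 for Gzmf, -0.50 for Gzmm, -0.63 for Srgn, -0.76 for Ctsw, -0.38 for Rab27a, -0.87 for Unc13d, -0.88 for Serpinb9 and -0.92 for Serpinb6b. The single regions did not all follow the sums. In BALB/c iNKT2 cells, Srgn and Rab27a each had 3 regions called higher and 0 lower, and Unc13d had 0 called. Gzmf, Gzmm, Ctsw, Serpinb9 and Serpinb6b had 2 to 5 regions called lower, with 1 called higher at each of Gzmm and Ctsw. All 5 regions of Gzmf are shared with members, and Serpinb9 and Serpinb6b share 7 regions. Gzmd and Gzme share their 1 region, which had at most 1.22 CPM in any library. That region was higher in BALB/c iNKT2 cells by 1.75 ± 0.499, at the edge of the limit but not past it (edgeR adjusted p = 0.010). In SKG the change was 0.56 ± 0.793 (adjusted p = 0.61). Between genotypes, 0 of 19 loci passed in iNKT1 (2 had an unadjusted p under 0.05, and DESeq2 and voom gave 0). In iNKT2, the locus of the TRAIL receptor Tnfrsf10b was higher by 0.37 (adjusted p = 0.0033), where 11.9% of all loci were higher. By voom no gene of the 19 passed there, and 282 loci in all were higher, beside 2159.

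Among the letters of the regions, the 57 member regions called lower in BALB/c iNKT2 cells held the Runt string TGTGGT in 50.9% of their central 300 bases, the T-box string AGGTGT in 29.8%, ETS CAGGAA in 31.6%, NFAT GGAAAA and Egr GCGTGG in 15.8% each and AP-1 TGANTCA in 12.3%. Over all 94823 regions the shares were 30.3% for Runt, 17.9% for T-box, 41.0% for ETS, 21.9% for NFAT and 10.6% for both Egr and AP-1. The 6029 regions called lower anywhere in the genome had 52.5% for Runt and 31.7% for T-box, close to the members, but 51.3% for ETS and 5.89% for Egr. In the 52 member regions not called, TGTGGT was found in 30.8% and GGAAAA in 32.7%. Of the 8 member promoters in RefSeq, those of Gzma, Gzmk, Prf1 and Nkg7 hold a T-box string, those of Gzma, Gzmb, Gzmc, Prf1 and Nkg7 a Runt string and that of Gzmb an AP-1 string, while those of Fasl and Tnfsf10 hold none of these 3. This stands beside 11.8%, 14.0% and 6.75% of 32851 RefSeq promoters of the same length with at least 1 T-box, Runt or AP-1 string. The intron region of Tnfsf10 holds 2 T-box strings and 1 Runt string.

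**Figure D5:**
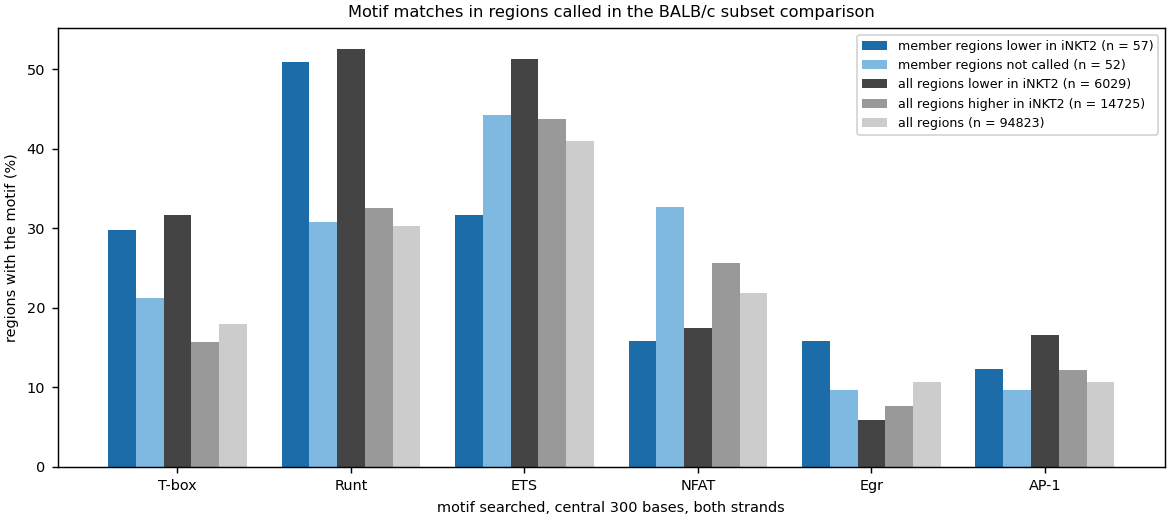
Share of regions in percent (y axis) whose central 300 bases hold each of 6 motifs (x axis), for member regions and all regions by their call between the BALB/c subsets. Runt and T-box strings are more frequent in the lower regions, both members (50.9% and 29.8%) and all (52.5% and 31.7%), than in all regions (30.3% and 17.9%).

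Over the 10 libraries, the summed loci most like those of the members, among genes that share no region with them, were Kcnj5 and Abcb11 for Gzma (Pearson r of log2 CPM 0.995 each), Soat2 and Igfbp6 for both Gzmb and Gzmc (0.996 and 0.998), and Gcm1 (0.998) and Slamf7 (0.997) for Prf1. For Gzmk they were Tmem207 (0.994) and Pigk (0.974), for Nkg7 Bst1 (0.99) and Pla1a (0.989), for Fasl 4933424G06Rik (0.998) and Ccnd3 (0.997), and for Tnfsf10 Epha1 and Zyx (0.992 each). The 10 points fall into the iNKT1 and iNKT2 libraries, and r is a description with no test.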

How the data were processed

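ATAC-seq libraries were made by the authors from sorted thymic iNKT cells. Per the labels and the methods of the study, reads were mapped to mm10 with Bowtie 1.0 with unique placements kept, those left unmapped were trimmed (Trim Galore) and mapped again, and both sets were merged and freed of mitochondrial and duplicate reads (Picard), and peaks were called with MACS2 and merged. The deposited table holds counts of insertions per region and library. Its name calls them normalized, but all values are whole numbers and library totals differ, so they were tested as raw counts.

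Each of 94823 regions was fitted with edgeR 4.0.16 (R 4.3.3, quasi-likelihood F test, TMM factors, 4 group means, 10 libraries in 1 fit with 6 residual degrees of freedom), with 5 contrasts and Benjamini-Hochberg adjustment over all regions. Counts were also summed per protein-coding locus and fitted alike. Starts are those of the GENCODE principal transcript, and coordinates are 1-based on GRCm38. The fit was tested on simulated data.

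All 8 members are named, each with the region at its start, the highest per kb, the smallest adjusted p between subsets in each genotype, and up to 3 called between genotypes or for the interaction. Members and lists were chosen with earlier results of these data known. No 2 libraries agreed within sampling noise. Same-numbered BALB/c and SKG iNKT2 libraries deviated together (r of 0.455, 0.142 and 0.166), although differently numbered libraries reached 0.224 (BALB/c 3 with SKG 2) and 0.147 (BALB/c 2 with SKG 3). By the rule that each of these same-numbered iNKT2 pairs exceeds 0.1, the numbers were treated as paired in an alternative fit with a replicate block. The block covered all 10 libraries, although same-numbered pairs that include an iNKT1 library gave r of only -0.0162 to 0.107. Other alternatives were library totals, DESeq2 1.42.0, limma 3.58.1 (voom with quantile normalization), a low-count filter, another threshold, only the groups compared, each library left out, and, added after the data were seen, the outermost annotated start.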

Additional observations from a re-analysis of the deposited data

Results flagged for a closer look

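The effect of genotype differed between the subsets by a test of the difference itself, in edgeR across all regions, at 3 regions. The interaction on the log2 scale, the change from iNKT1 to iNKT2 in SKG minus that in BALB/c, was -2.04 at the Gzma start, 3.25 at the region 13.8 kb upstream of Gzmb and 2.11 at the region 26.5 kb downstream of Fasl. Over all regions, 0.189% were called higher and 0.341% lower for the interaction. The call at Gzmb held in each alternative and omission. Those at the Gzma start and at Fasl were lost in several omissions of a library, and that at Fasl also with voom. Groups of 2 and 3 libraries were too small for a test of single outlying libraries.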

How the results depend on the processing

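Under the settings tried, no called value of a named region or summed locus changed sign. With an adjusted p of 0.05 and 2-fold as limits, the counts were 7 regions higher in BALB/c iNKT2, 4 higher in SKG iNKT2, 1 higher and 3 lower in SKG iNKT1, 5 higher and 15 lower in SKG iNKT2 against BALB/c, and 5 higher for the interaction. The share of all regions at these looser limits is not given, so these counts cannot be read against it. With voom the counts were 1 higher in SKG iNKT2 against iNKT1, 0 lower in SKG iNKT1, 3 higher in SKG iNKT2 against BALB/c and 1 higher for the interaction. Among all 94823 regions voom called 4244, 129, 1173 and 96 in the same order. Leaving out each library in turn gave 52 to 60 lower and 3 higher in BALB/c iNKT2 against iNKT1, 49 to 54 lower and 1 to 3 higher in SKG, 0 to 1 lower in SKG iNKT1, 4 to 6 lower and 1 to 3 higher in SKG iNKT2, and 1 to 2 higher and 0 to 1 lower for the interaction. A library left alone in its group is assumed to vary like the others. The replicate block gave 56 lower in BALB/c and 52 in SKG between subsets, and 4 lower and 1 higher between genotypes in iNKT2. Among all 94823 regions it called 5729, 6430, 4730 and 239 in the same order. Among named regions and summed loci the block changed no call other than those at Gzma (3.79 kb upstream), Gzmb (21.9 kb upstream) and the Fasl locus. The low-count filter, at a mean count of at least 36.2, left 71183 regions, of which 3579 were called lower in BALB/c. With it 41 member regions were called lower, and the number of member regions it kept is not given. Library totals in place of TMM gave 49 lower in BALB/c, beside 4750 of all 94823 regions, and moved the median of all regions. Of the log2 values of named regions under these settings, 2073 stayed on their side of the limits, 40 lost a call and 5 gained one, and for summed loci these were 541, 13 and 6. The outermost start changed no count. Where they are not named, the causes of these shifts were not tested. Depth limits regions with a few insertions per group, such as that 3.79 kb upstream of Gzma.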
